A study of Mus musculus with 66 samples.

Results

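The opioid receptors are the mu receptor Oprm1, the delta receptor Oprd1, the kappa receptor Oprk1 and the nociceptin receptor Oprl1. They were taken as the entries of the deposited gene table whose symbol equals one of these names, which gave 4 of 24138 genes, each listed once. Their mRNA was measured by RNA-seq in punches of the ventral striatum, which holds the nucleus accumbens (NAcc), of adult male C57BL/6 mice. WT mice were compared with iMSN-D2RKO mice, in which both copies of the dopamine D2 receptor gene Drd2 are floxed and the Cre recombinase is driven by the promoter of the dopamine D1 receptor gene. This Cre is active in the embryonic precursors of the medium spiny neurons (MSNs), so that Drd2 is lost from the MSNs of the indirect pathway (iMSNs). The sources used here do not say whether the WT mice carried floxed alleles. Mice received saline or 20 mg/kg cocaine i.p. at zeitgeber time (ZT) 3, in the rest phase, and were killed at ZT7, ZT11, ZT15, ZT19 or ZT23. A ZT3 group of each genotype serves both its saline and its cocaine series. This gave 22 groups of 3 libraries, 66 in all, 33 of each genotype, with ZT3 to ZT11 in the light (30 libraries) and ZT15 to ZT23 in the dark (36 libraries). The labels do not say that the 3 libraries of a group came from separate animals, so p-values measure the spread between these libraries, part of which may be technical.

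Opioid receptors are G protein coupled receptors that act mainly through inhibitory G proteins: they lower cAMP, open inwardly rectifying potassium channels and close presynaptic calcium channels. Enkephalins, cut from the precursor Penk, act on the mu and delta receptors, dynorphins, cut from Pdyn, act on the kappa receptor, and nociceptin, cut from Pnoc, acts on the nociceptin receptor and not on the classical opioid receptors. In the striatum Penk is made by iMSNs and Pdyn by MSNs of the direct pathway, mu receptors are dense in the striosomes, delta receptors are found on MSNs and cholinergic interneurons, and kappa receptors sit on MSNs and on dopamine terminals, whose mRNA lies in the midbrain and is not part of a striatal punch.

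The 4 genes are close relatives, and a read that lies wholly in a stretch that they share could be assigned to the wrong one. Between 62.1% and 66.7% of coding bases were identical in pairs of receptors, and the longest exact run shared by a pair was 17 to 25 bases. The single-end reads of the authors were longer than any of these runs. The 60 coding bases with the most identity in all 4 receptors are shown to let this likeness be seen. Capitals mark the 43 bases that are the same in all 4. The first 2 bases end 1 coding exon and the other 58 open the next, so the window spans an intron in every receptor. The sequences are those of the GENCODE transcripts on GRCm38, which is mm10, read 5′ to 3′ on the strand of the gene.
Oprm1, chr10:6789157-6789158 and chr10:6828885-6828942, + strand: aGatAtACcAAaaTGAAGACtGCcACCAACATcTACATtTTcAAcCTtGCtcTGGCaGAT
Oprd1, chr4:132144159-132144160 and chr4:132117411-132117468, - strand: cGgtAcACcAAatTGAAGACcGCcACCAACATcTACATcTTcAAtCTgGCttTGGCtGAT
Oprk1, chr1:5589304-5589305 and chr1:5598590-5598647, + strand: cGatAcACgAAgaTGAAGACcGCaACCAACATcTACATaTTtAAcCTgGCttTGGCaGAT
Oprl1, chr2:181715945-181715946 and chr2:181718377-181718434, + strand: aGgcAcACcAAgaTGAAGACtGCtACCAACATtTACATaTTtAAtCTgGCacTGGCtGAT
Oprm1 lies at chr10:6758506-7038198 (+), Oprd1 at chr4:132110726-132144486 (-), Oprk1 at chr1:5588466-5606131 (+) and Oprl1 at chr2:181715016-181720985 (+). The GENCODE annotation lists 31 transcripts for Oprm1, 11 for Oprl1, 5 for Oprk1 and 1 for Oprd1. The deposited values were summarized to genes from the authors' own assembly, whose transcripts need not be these. Ipcef1, an antisense neighbour, shares 96 of the 8037 exon bases of Oprm1 (1.19%). The libraries were stranded, but the strand setting of the counting is not given in the sources used here.

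Of the 66 libraries, 13 stood apart from the others of their group, and values without them are given beside the main receptor comparisons. The first principal component of the deviations from the group means (9584 genes above a mean of 5 FPKM) held 43.6% of their variance. The library score is the projection on that axis of a library's log2 values, centred on the mean of all libraries. Group means are kept in the score, so as a covariate it can also take up differences between groups and times. The other 53 libraries scored -35.9 to 15.1, and the 13 scored 44.3 to 56.1. They came from 10 groups, 6 from WT and 7 from iMSN-D2RKO mice, 7 without and 6 with cocaine, but 12 of the 13 were killed in the dark. Apart from them, iMSN-D2RKO ZT7 saline replicate 1 had the highest summed FPKM (690048, median of all libraries 396432). As FPKM, Drd2 ran from a mean of 99.6 ± 17.7 (SD, n = 3, iMSN-D2RKO ZT11 cocaine) to 227 ± 71.2 (WT ZT19 cocaine) and did not differ between the genotypes (log2 difference, iMSN-D2RKO minus WT, -0.13, SE 0.13, adjusted p = 0.79). A value over a whole gene also counts exons that a partial deletion leaves in place and Drd2 of other cells, so it does not check the genotype labels. All 6 common MSN markers and all 5 markers of each MSN pathway were present in the table above 0.

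All 4 receptors were expressed at low to middling levels. FPKM, read fragments scaled to the length of the transcript and the size of the library, allows levels of different genes to be set side by side. Oprl1 was highest with 13.2 ± 3.04 FPKM (SD, n = 66 libraries), followed by Oprk1 with 9.48 ± 2.46, Oprd1 with 6.82 ± 2.49 and Oprm1 with 3.78 ± 1.90. Of 12945 genes with a mean of at least 1 FPKM, 53.6% had a lower mean than Oprl1 and 19.9% a lower mean than Oprm1. In 43 of the 66 libraries the order was Oprl1, Oprk1, Oprd1, Oprm1.

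The lowest, median and highest Oprm1 values were 0, 3.30 and 10.3 FPKM. Oprd1 ran from 1.34 over a median of 6.77 to 22.6 FPKM, Oprk1 from 4.54 over 9.10 to 17.9, and Oprl1 from 7.04 over 13.2 to 19.6. The mu receptor was thus the most scattered and the nociceptin receptor the least. The SD within groups on the log2(FPKM + 1) scale was 0.60 for Oprm1, above that of 96.4% of 1853 genes of like level, and 0.44 for Oprd1, above that of 87.9% of 2378 genes of like level. For Oprk1 it was 0.29 and for Oprl1 0.28, near the middle of genes of their level (56.2% and 52.4% lower).

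Another 3 libraries, chosen after their values were seen, held the extremes of Oprd1 or Oprm1. In WT ZT15 cocaine, Oprd1 was 8.27, 5.49 and 22.6 FPKM and Oprm1 was 2.63, 2.74 and 10.3 FPKM, so replicate 3 held the highest value of both genes in the series. In iMSN-D2RKO ZT7 saline, Oprd1 was 1.34, 8.20 and 9.61 FPKM and Oprm1 was listed at 0 in replicate 1 and was 1.78 and 2.03 FPKM in the others. Replicate 1 of that group is the library with the highest summed FPKM, and all 4 receptors were lowest in it within the group (Oprk1 4.54, Oprl1 8.57 FPKM). In WT ZT19 cocaine, Oprd1 was 4.50, 1.72 and 7.77 FPKM and Oprm1 8.50, 1.12 and 6.63 FPKM, with replicate 2, the only one of that group that was not set apart, lowest in both.

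**Figure D1:**
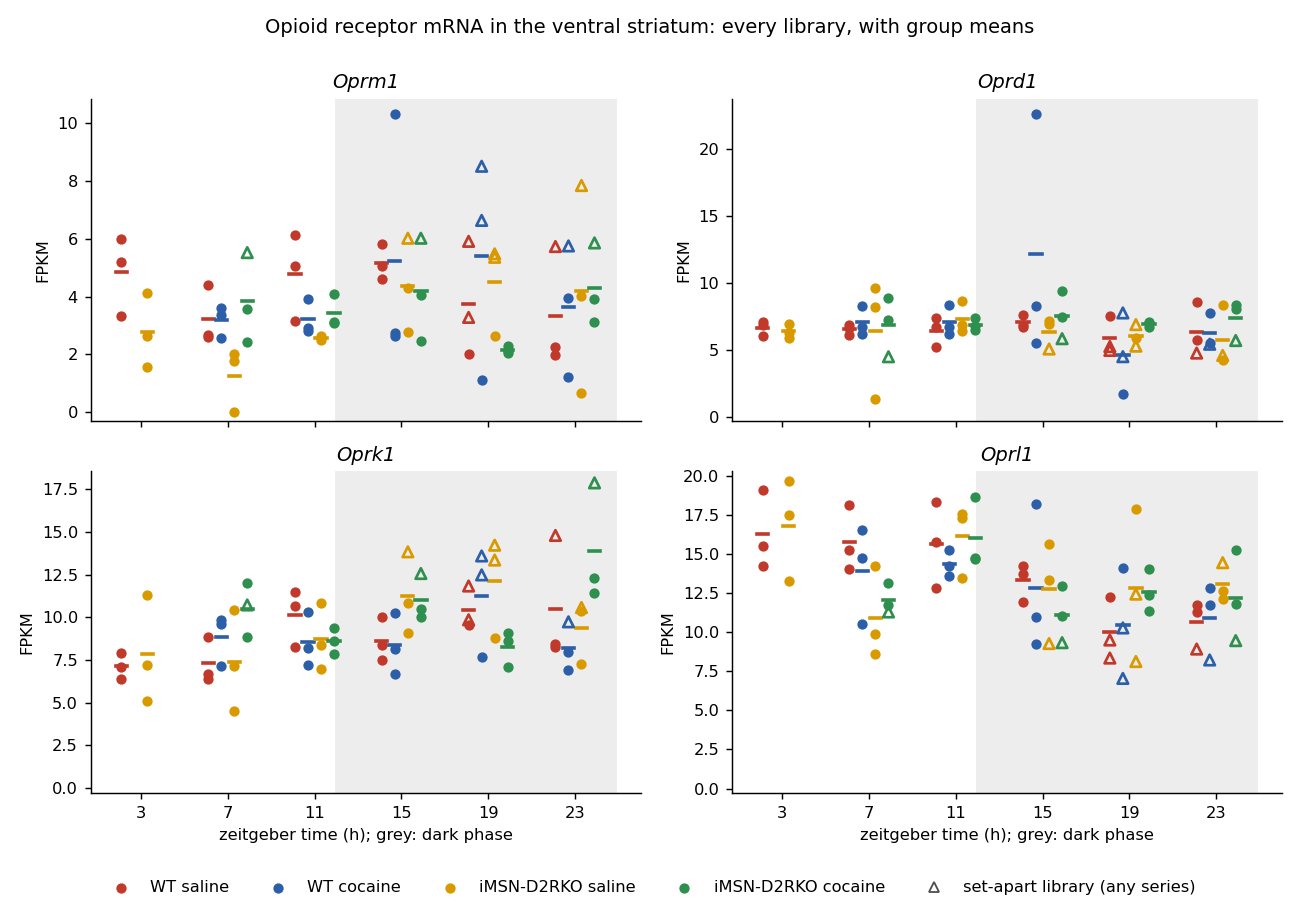
FPKM of each receptor (y axis) in every library against zeitgeber time in hours (x axis), by genotype and treatment, with bars at group means of 3 libraries and grey for the dark phase. Open triangles are the 13 set-apart libraries, 12 of them in the dark, where Oprm1 and Oprk1 triangles lie high and Oprl1 triangles mostly low.

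Ordered by group mean, Oprm1 ran from 1.27 ± 1.11 FPKM (iMSN-D2RKO ZT7 saline) to 5.42 ± 3.84 FPKM (WT ZT19 cocaine). Oprd1 ran from 4.66 ± 3.03 (WT ZT19 cocaine) to 12.1 ± 9.21 (WT ZT15 cocaine), Oprk1 from 7.13 ± 0.771 (WT ZT3) to 13.9 ± 3.49 (iMSN-D2RKO ZT23 cocaine), and Oprl1 from 10.03 ± 2.003 (WT ZT19 saline) to 16.8 ± 3.22 (iMSN-D2RKO ZT3). Of the 21 pairs of neighbours in that order, 1 differed by more than the larger SD of the pair for Oprm1 and 0 did so for the other receptors.

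The set-apart libraries changed the order of the receptors. Oprl1 lay above Oprk1 in 51 of the 53 other libraries and in 2 of the 13, and Oprd1 lay above Oprm1 in 52 of the 53 and in 3 of the 13. The order given above held in 43 of the 53 and in 0 of the 13. Median Oprm1 was 5.85 FPKM in the 13 libraries (3.28 to 8.50) against 2.80 in the others, and median Oprk1 was 12.6 FPKM (9.74 to 17.9) against 8.42. Median Oprl1 was 9.33 FPKM (7.04 to 14.4) against 14.0, and median Oprd1 was 5.26 FPKM (4.50 to 7.77) against 6.89.

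Compared within their groups, so that genotype, treatment and time are shared, the set-apart libraries were higher for Oprm1 in 10 of 10 groups (median 0.84 on the log2 scale, 0.61 to 2.004) and for Oprk1 in 10 of 10 groups (median 0.40, 0.05 to 0.76). They were lower for Oprl1 in 9 of 10 groups (median -0.44) and for Oprd1 in 8 of 10 (median -0.43, with 1.35 in WT ZT19 cocaine, where the library beside them had the low Oprd1 value of 1.72 FPKM). Since these libraries were found from the same data, this is a description and was not tested. Shifts of this size were common: 49.4% of genes had a median of at least 0.4 in either direction, and 92.1% of genes had a lower median than Oprm1. Drd2 was also higher in 10 of 10 groups (median 1.002).

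Marker sums of several lists moved with the 13 libraries. The summed FPKM of 3 matrix markers was 422 to 624 in them and 172 to 384 in the others, higher in 10 of 10 groups. The sum of 5 astrocyte markers was 294 to 385 against 169 to 406 (higher in 9 of 10 groups), the sum of 4 endothelial markers 37.0 to 51.2 against 38.5 to 103 (lower in 10 of 10) and the sum of 5 oligodendrocyte markers 1738 to 3520 against 1885 to 5290 (lower in 8 of 10). The sum of 5 markers of other striatal interneurons was higher in 9 groups (median 0.45, log2) and that of 5 indirect pathway markers in 8 (0.17). Sums of 5 direct pathway markers (-0.10), 6 microglia markers (-0.11) and 1 oligodendrocyte precursor marker (-0.12) were lower in 9, 8 and 8. The sum of 5 striosome markers was higher in 6 groups and lower in 4 (0.06). The remaining lists were higher in 4 or 7 groups. No marker of these lists was at 0 in every library. The part of these cells in the receptor values was not tested, and in bulk tissue fewer cells of a type and less RNA per cell cannot be told apart.

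**Figure D2:**
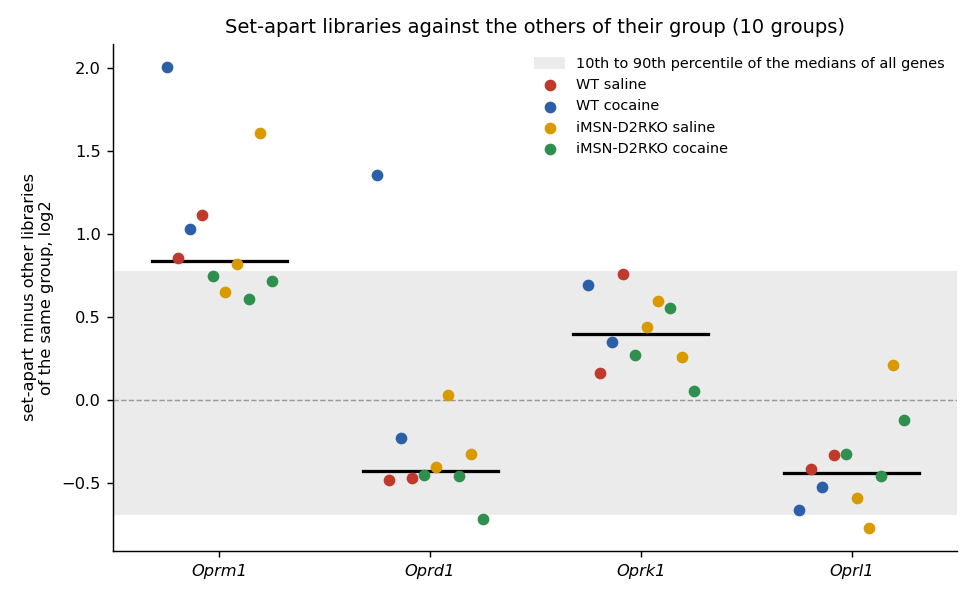
Difference between the set-apart and the other libraries of the same group, log2(FPKM + 1) (y axis), for each receptor (x axis), with 1 point for each of 10 groups coloured by series, a black line at the median and, in grey, the range from the 10th to the 90th percentile of the medians of all genes (-0.69 to 0.77). All 10 Oprm1 and Oprk1 points lie above 0, while 9 Oprl1 and 8 Oprd1 points lie below.

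The first comparison asked whether loss of Drd2 from iMSNs changed the level of the receptors. No receptor passed the test (limma on log2(FPKM + 1), Benjamini-Hochberg adjusted p under 0.05), in a comparison that called 116 of 14643 genes (0.792%). Oprm1 had 4.16 ± 2.04 FPKM in WT (SD, n = 33) and 3.41 ± 1.70 in iMSN-D2RKO mice, with medians of 3.61 and 3.08 and overlapping ranges of 1.12 to 10.3 and 0 to 7.84. Its log2 difference, iMSN-D2RKO minus WT at matched time and treatment, was -0.24 (95% interval -0.52 to 0.05, adjusted p = 0.57). Oprk1 had 9.04 ± 2.09 FPKM in WT and 9.92 ± 2.74 in iMSN-D2RKO mice (0.10, -0.04 to 0.25). For Oprl1 the difference was 0.03 (-0.11 to 0.17) and for Oprd1 -0.01 (-0.21 to 0.20), so differences larger than these bounds lie outside the 95% interval. Without the set-apart libraries the differences were -0.28 for Oprm1, 0.10 for Oprk1, -0.0122 for Oprl1 and 0.0502 for Oprd1 (adjusted p = 0.33 for Oprm1).

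The same comparison within each treatment gave the largest difference for Oprm1 in saline. In the 18 saline libraries of each genotype, ZT3 included, Oprm1 was 1.98 to 6.12 FPKM (median 4.51) in WT and 0 to 7.84 FPKM (median 2.64) in iMSN-D2RKO mice, so the ranges overlapped. The log2 difference was -0.38 (SE 0.19, 95% interval -0.76 to 0.00, unadjusted p = 0.053, adjusted p = 0.51), where 0.189% of genes were called, and -0.06 after cocaine (-0.48 to 0.35), where 0.0487% were called. Oprk1 differed by 0.04 (-0.17 to 0.24) in saline and 0.18 (-0.04 to 0.40) after cocaine. Without the set-apart libraries the Oprm1 value was -0.56 in saline (adjusted p = 0.16) and 0.0847 after cocaine, and the Oprk1 value was -0.0045 in saline and 0.23 after cocaine.

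**Figure D3:**
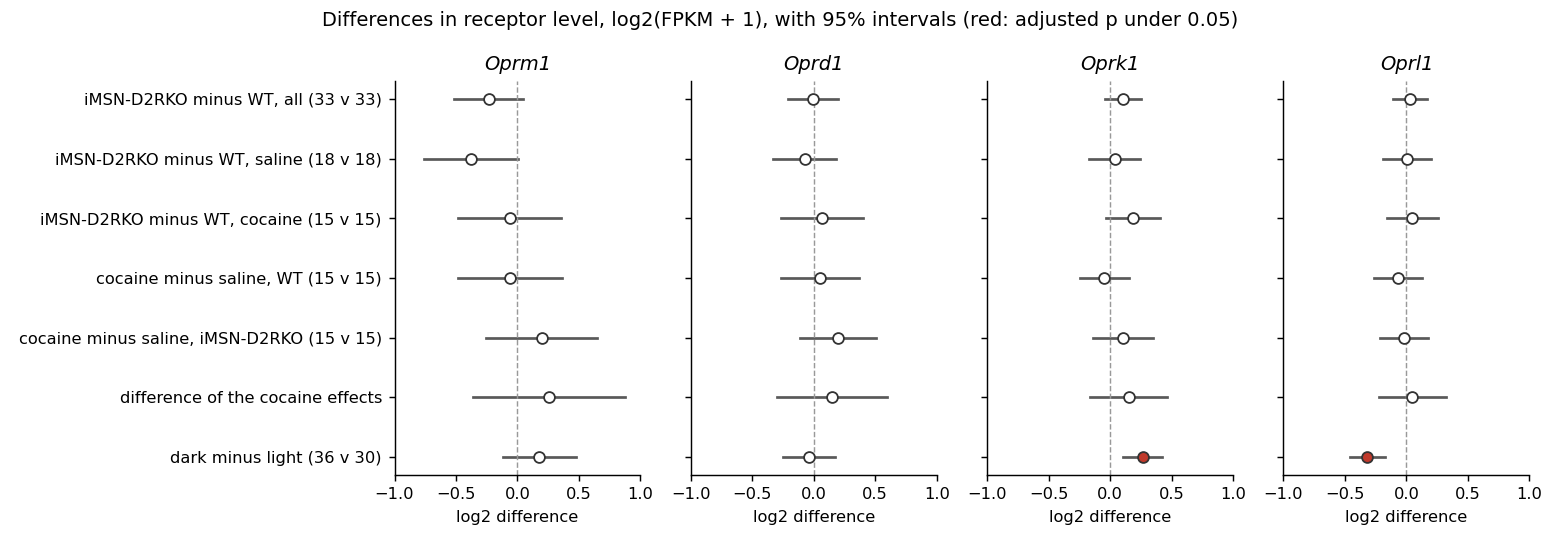
Log2 difference in receptor level (x axis) for the genotype, cocaine and light phase comparisons (y axis, with the number of libraries on each side), with points for estimates, lines for 95% intervals and red for an adjusted p under 0.05. Only Oprk1 (0.26) and Oprl1 (-0.32) between dark and light are red.

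At single conditions, 0 of 44 tests of a receptor between the genotypes passed, and 3 had an unadjusted p under 0.05. Over all genes these contrasts called 0.041% at ZT3, 3.07% at ZT7 and 0.0205% at ZT19 in saline, 4.4% at ZT15, 11.9% at ZT19 and 0.0137% at ZT23 after cocaine, and 0.0% at the other conditions. At ZT7 in saline, where 3.07% of genes were called, Oprm1 was 4.42, 2.59 and 2.69 FPKM in WT and 0, 1.78 and 2.03 FPKM in iMSN-D2RKO mice, so that all 3 WT libraries lay above all 3 others. The log2 difference was -1.03 (SE 0.47, adjusted p = 0.20) and became -0.52 without iMSN-D2RKO replicate 1. Oprl1 was 15.2, 18.1 and 14.0 FPKM in WT and 8.57, 14.2 and 9.87 FPKM in iMSN-D2RKO mice at that time, where 1 library of the latter reached the WT values (-0.52, SE 0.23, adjusted p = 0.18). None of these 6 libraries is set apart, and in the fit without the set-apart libraries of other groups the adjusted p was 0.065 for Oprm1 and 0.057 for Oprl1.

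The ZT7 results depended on the fit. Without iMSN-D2RKO ZT7 saline replicate 1, the library with the highest summed FPKM, neither gene passed. The limma difference was then -0.52 for Oprm1 (unadjusted p = 0.31) and -0.38 for Oprl1 (unadjusted p = 0.14). With the library score as a covariate, both passed, in a fit that called 19.4% of all genes for this contrast. Oprm1 had -0.995 (adjusted p = 0.018) and Oprl1 -0.53 (adjusted p = 0.045). The score keeps group means, so it can take up part of a difference between groups. At ZT23 after cocaine, Oprk1 was 7.97, 6.92 and 9.74 FPKM in WT and 17.9, 12.3 and 11.4 FPKM in iMSN-D2RKO mice, with no overlap (0.68, SE 0.23, unadjusted p = 0.0057, adjusted p = 1, 0.0137% of genes called). The highest value of each group there is a set-apart library, and without both the difference was 0.61 (adjusted p = 1).

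At ZT19 after cocaine the 2 genotypes differed most in which libraries were set apart, 2 of 3 in WT and 0 of 3 in iMSN-D2RKO mice. Oprd1 was 4.50, 1.72 and 7.77 FPKM in WT and 7.11, 6.75 and 6.98 FPKM in iMSN-D2RKO mice, so that the latter lay inside the range of the former (0.64, adjusted p = 0.16). Without the set-apart libraries WT was left with the library at 1.72 FPKM, and Oprd1 passed (1.55, adjusted p = 0.020) in a fit that called 20.4% of genes.

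The second comparison asked whether cocaine changed the receptors. No receptor passed in WT or in iMSN-D2RKO mice over ZT7 to ZT23 (15 libraries on each side), where 0.0% of genes were called in each genotype and 365 and 425 genes had an unadjusted p under 0.05. The largest differences, cocaine minus saline, were those of Oprd1 (0.20, 95% interval -0.11 to 0.51) and Oprm1 (0.20, -0.25 to 0.65) in iMSN-D2RKO mice. In WT the differences lay between -0.07 (Oprl1, -0.26 to 0.13) and 0.05 (Oprd1, -0.27 to 0.37). The cocaine effect did not differ by genotype for any receptor beyond the spread (interaction 0.05 to 0.26, the largest for Oprm1, with a 95% interval of -0.36 to 0.88). In the 53 other libraries no receptor passed either, with cocaine differences of 0.37 for Oprm1 and 0.25 for Oprd1 in iMSN-D2RKO mice, -0.18 for Oprm1 in WT, and an interaction of 0.55 for Oprm1 (adjusted p = 0.80). The interaction test with all libraries called 0.0% of genes, and 245 of 14622 had an unadjusted p under 0.05.

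At single time points, 0 of 40 receptor tests of cocaine against saline passed, and 4 had an unadjusted p under 0.05. Over all genes these contrasts called 0.00683% at ZT7 and at ZT15 and 0.0205% at ZT19 in WT, 0.0137% at ZT7 in iMSN-D2RKO mice and 0.0% at the other times. At ZT7, the first time point after the injection, Oprm1 in iMSN-D2RKO mice was 3.56, 5.52 and 2.45 FPKM after cocaine and 0, 1.78 and 2.03 FPKM after saline, with no overlap (1.20, SE 0.47, adjusted p = 0.15, 0.0137% of genes called). The difference was 0.69 without saline replicate 1, the library listed at 0, and 0.96 without the set-apart library, the one at 5.52 FPKM. In WT at ZT7, Oprm1 was 3.60, 2.56 and 3.36 FPKM after cocaine and 4.42, 2.59 and 2.69 FPKM after saline, and these overlapped (0.00, 95% interval -0.95 to 0.95).

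Oprk1 gave the other 3 of the 4, all in iMSN-D2RKO mice and not in 1 direction. It was 12.01, 10.7 and 8.82 FPKM after cocaine against 4.54, 7.14 and 10.4 FPKM after saline at ZT7 (0.51, and 0.25 without saline replicate 1). It was 9.10, 7.11 and 8.60 against 13.4, 8.81 and 14.2 FPKM at ZT19 (-0.48), where both high saline libraries were set apart and the value was -0.09 without them. At ZT23 it was 17.9, 12.3 and 11.4 against 10.4, 7.26 and 10.6 FPKM, with no overlap (0.51, adjusted p = 1, and 0.41 without the set-apart libraries).

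With all libraries and no covariate, time of day gave the only receptor differences that passed. All mice killed from ZT7 on had been injected at ZT3. Time of day and hours since the injection therefore cannot be told apart, here and in the rhythm tests below. Across the 6 time points the F test called 49.9% of genes, and of the receptors it called Oprl1 (adjusted p = 0.0030) and not Oprk1 (0.078), Oprm1 (0.33) or Oprd1 (0.37). Mean Oprl1 was 16.5 ± 2.60 FPKM at ZT3 (SD, n = 6), 13.2 ± 2.84 at ZT7 (n = 12, as at all later times), 15.5 ± 1.98 at ZT11, 12.5 ± 2.76 at ZT15, 11.5 ± 3.06 at ZT19 and 11.7 ± 2.08 at ZT23. The mean of the nociceptin receptor was highest at ZT3 and lowest at ZT19, where 6 of the 12 libraries are set apart. With these left out it was 13.7 FPKM at ZT19 (n = 6), above ZT7 (13.3, n = 11), ZT15 (13.1, n = 10) and ZT23 (12.4, n = 8).

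Mean Oprk1, which the F test did not call, went from 7.51 ± 2.102 FPKM at ZT3 and 8.52 ± 2.16 at ZT7 over 9.01 ± 1.496 at ZT11 and 9.82 ± 2.05 at ZT15 to 10.5 ± 2.46 at ZT19 and 10.5 ± 3.26 at ZT23. In the 53 other libraries the last 3 means were 9.14, 8.48 and 9.12 FPKM, near the 9.01 of ZT11. In WT saline, Oprk1 was 7.92, 7.09 and 6.38 FPKM at ZT3, 8.85, 6.70 and 6.38 at ZT7 and 10.7, 11.5 and 8.26 at ZT11. It was 10.02, 8.39 and 7.48 FPKM at ZT15, 9.86, 11.8 and 9.56 at ZT19 and 14.8, 8.26 and 8.42 at ZT23. All ZT19 libraries lay above all ZT3 and ZT7 libraries, and the highest value, 14.8 FPKM, is that of a set-apart library.

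Oprm1 means lay between 2.88 ± 1.39 (ZT7) and 4.73 ± 2.20 FPKM (ZT15), and Oprd1 means between 5.89 ± 1.70 (ZT19) and 8.28 ± 4.67 FPKM (ZT15). For both genes the ZT15 mean includes WT cocaine replicate 3, which held their highest values.

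Between dark and light, where 51.1% of genes were called, Oprl1 fell and Oprk1 rose. Oprl1 ran from 8.57 over a median of 14.7 to 19.6 FPKM in the 30 light libraries and from 7.04 over 11.9 to 18.2 FPKM in the 36 dark ones. The log2 difference, dark minus light, was -0.32 (SE 0.07, adjusted p = 0.00036), among 19.3% of genes called lower. Oprk1 ran from 4.54 over 8.31 to 12.01 FPKM in the light and from 6.70 over 9.94 to 17.9 FPKM in the dark (0.26, SE 0.08, adjusted p = 0.0055), among 31.8% of genes called higher. The ranges of both genes overlapped widely. Oprm1 (0.18, SE 0.15, 95% interval -0.12 to 0.47, adjusted p = 0.32) and Oprd1 (-0.04, -0.25 to 0.17, adjusted p = 0.78) did not pass.

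Both calls were lost without the 13 set-apart libraries, 12 of which are dark libraries. Then 15.5% of genes were called, Oprl1 differed by -0.18 (adjusted p = 0.065) and Oprk1 by 0.09 (adjusted p = 0.48), and Oprm1 turned to -0.16 (adjusted p = 0.45). The median of Oprk1 in the dark was 8.70 FPKM without them, against 8.26 in the light. With the library score as a covariate the values were -0.18 (adjusted p = 0.066) for Oprl1, 0.06 (0.59) for Oprk1 and -0.25 (0.12) for Oprm1. Both genes kept their direction with smaller values, and why 12 of the 13 libraries are dark ones was not tested. The matrix marker sum that moved with these libraries was 172 to 520 in the light (median 256) and 211 to 624 in the dark (median 304), and its part in the difference was not tested.

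**Figure D4:**
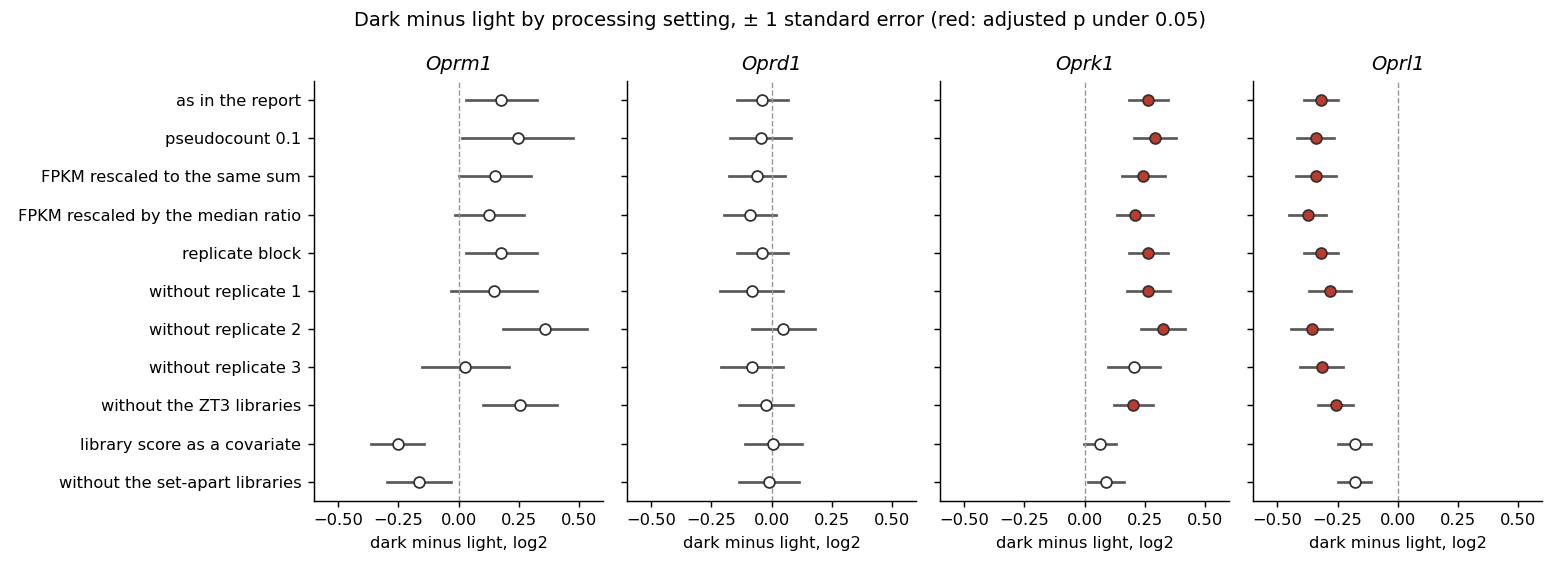
Log2 difference between dark and light (x axis) for each receptor under the processing settings tried (y axis), with points for estimates, lines for 1 standard error and red for an adjusted p under 0.05. Oprl1 stays below 0 under all settings shown (-0.18 without the set-apart libraries), and Oprm1 moves from 0.18 to -0.25 with the library score as a covariate.

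Oprm1 gained a time difference where Oprl1 lost it. Without the set-apart libraries the F test of time point gave an adjusted p of 0.037 for Oprm1 and 0.062 for Oprl1 (23.3% of genes called), and with the library score 0.0045 and 0.084 (37.4% called). Mean Oprm1 in the remaining libraries was 3.80 ± 1.65 FPKM at ZT3 (n = 6), 2.64 ± 1.17 at ZT7 (n = 11), 3.50 ± 1.12 at ZT11 (n = 12), 4.47 ± 2.35 at ZT15 (n = 10), 2.04 ± 0.508 at ZT19 (n = 6) and 2.64 ± 1.31 at ZT23 (n = 8). It was thus highest at ZT15 and lowest at ZT19, the neighbouring time point. The ZT15 mean includes WT cocaine replicate 3 at 10.3 FPKM. Of the 6 ZT19 libraries 3 are of iMSN-D2RKO cocaine, and each other group has 1.

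Daily rhythm was tested in each series of 18 libraries with JTK_CYCLE, a rank test against cosine curves with an exact null distribution, periods of 20 and 24 h and a threshold of 0.01, Bonferroni corrected for the 11 patterns of a gene and not over genes. Oprl1 was the only receptor called, and only in WT saline (exact p = 0.0053, period 24 h), where 9.81% of genes were called. The best matched curve peaks at ZT9, between sampled times, while the group mean was highest at ZT3 (16.3 FPKM). In that series Oprl1 was 15.5, 19.1 and 14.2 FPKM at ZT3, 15.2, 18.1 and 14.0 at ZT7, and 12.8, 15.7 and 18.3 at ZT11. In the dark it was 11.9, 14.2 and 13.7 FPKM at ZT15, 8.34, 9.50 and 12.2 at ZT19, and 8.92, 11.3 and 11.7 at ZT23. Every library of ZT3 and ZT7 thus lay above every library of ZT19 and ZT23. The 3 lowest values, 8.34, 8.92 and 9.50 FPKM, are those of the 3 set-apart libraries of the series, and without them the exact p was 0.17. The call was also lost without replicate 1 or 2 (exact p = 0.083 each) or replicate 3 (exact p = 0.029), which leave 12 libraries.

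The other 15 tests did not pass. For Oprl1 the exact p was 0.17 in WT cocaine (7.61% of genes called), 1 in iMSN-D2RKO saline (2.58% called) and 0.64 in iMSN-D2RKO cocaine (1.1% called). The smallest of the others was Oprm1 in iMSN-D2RKO saline (exact p = 0.036), where the group with the listed 0 is the lowest. A call in 1 series and not in another is by itself no difference in rhythm. A cosine model with an interaction term, tested for 4 pairs of series, called 0 of 16 receptor tests. It called 0.0% of all genes, so it cannot show that the rhythms were alike. Only the fit of the genotypes in saline included ZT3. For Oprl1 between the genotypes in saline its unadjusted p was 0.11 (adjusted p = 0.98). The smallest p was that of Oprm1 between saline and cocaine in iMSN-D2RKO mice (unadjusted p = 0.018, adjusted p = 0.59).

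The ligands, enzymes and signalling partners of the receptors were counted from 10 lists of 60 genes, of which 58 were in the table and 57 were tested. Between the genotypes 2 passed, beside 0.792% of all genes, both higher in iMSN-D2RKO mice. Penk, the enkephalin precursor, differed by 0.73 (SE 0.10, adjusted p = 1.9e-06, mean over all libraries 1874 FPKM), and Pam, the enzyme that amidates peptide ends, by 0.13 (SE 0.03, adjusted p = 0.037). Pdyn did not pass (-0.26, SE 0.11, adjusted p = 0.31), nor did Pomc (-0.06) and Pnoc (-0.01). Without the set-apart libraries Penk differed by 0.75 (adjusted p = 0.00014) and Pam did not pass (0.12, adjusted p = 0.12). Within the saline and within the cocaine series, 1 of the 4 precursors passed with all libraries (0.189% and 0.0487% of all genes). In each series 0 of the 4 passed without the set-apart libraries. The sum of the 5 indirect pathway markers, Penk among them, reached 10073 FPKM in the light, where its median was 1893. Cocaine called 0 of the 57 in WT and 0 in iMSN-D2RKO mice, beside 0.0% of all genes in each.

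Between dark and light 22 of the 57 passed, 13 higher and 9 lower in the dark, beside 51.1% of all genes, and 3 passed without the set-apart libraries (15.5% of all genes). Of the 4 precursors tested, Penk was higher (0.26, adjusted p = 0.036) and Pomc, the beta-endorphin precursor, lower (-0.41, adjusted p = 0.00038). Of the 6 enzymes tested that degrade opioid peptides, 4 passed: Mme, the enkephalin-cleaving neprilysin, was higher (0.39, adjusted p = 0.0053), and Ece2 (-0.40), Dpp3 (-0.31) and Ece1 (-0.17) were lower. Of the 8 adenylyl cyclases, which make the cAMP that the receptors lower, Adcy5, the main striatal form, was lower (-0.28, adjusted p = 0.011) together with Adcy3 and Adcy7, and Adcy6 was higher. Of the inhibitory G protein subunits only Gnai1 passed (0.25), of the 3 tested G protein gated potassium channels 0 and of the 2 presynaptic calcium channels 0. Of the 9 RGS proteins and their partners, which shorten G protein signals, Rgs7 (0.27, adjusted p = 0.0021), Rgs17 (0.26) and Rgs7bp (0.23) were higher and Gnb5 (-0.25) and Rgs14 (-0.20) lower. The 3 genes that also passed without the 13 libraries were Arrb2, the beta-arrestin 2 that binds phosphorylated receptors (0.11 with all libraries, 0.21 without), the receptor kinase Grk4 (0.23 and 0.09) and Pam (0.14 and 0.13).

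**Figure D5:**
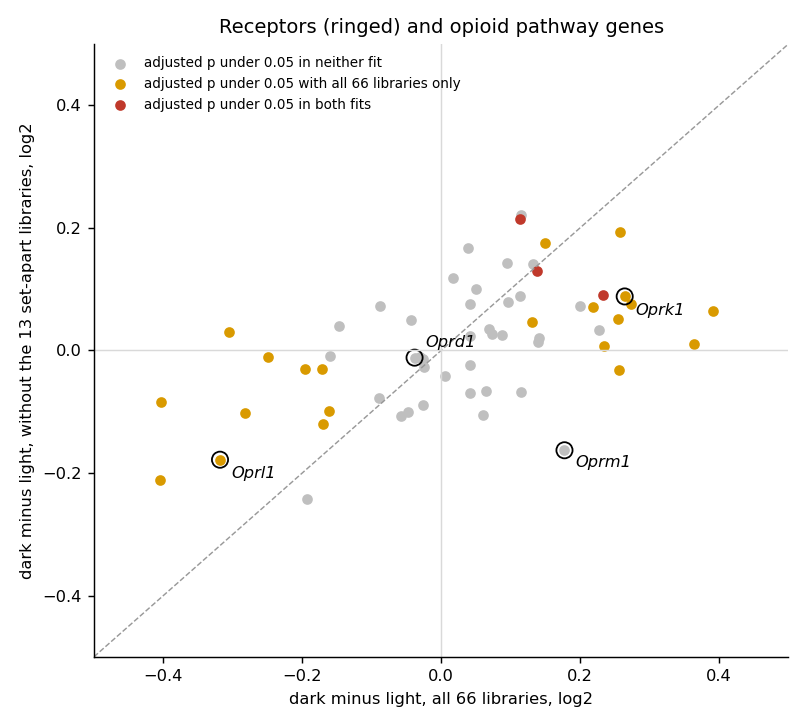
Log2 difference between dark and light with all 66 libraries (x axis) and without the 13 set-apart libraries (y axis) for the 4 receptors (ringed) and the tested pathway genes, coloured by whether the adjusted p was under 0.05, with the dashed line at equality. Most coloured points lie closer to 0 on the y axis, as Oprk1 does (0.26 and 0.09), and Oprm1 lies on opposite sides of 0 (0.18 and -0.16).

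Relations among the receptors were computed within the 53 and within the 13 libraries, since the 2 sets form separate clusters. In the 53, Oprk1 and Oprd1 were related (Pearson r = 0.49, permutation p = 0.00032; Spearman rho = 0.48, permutation p = 0.00028; adjusted over the 6 pairs 0.00096 and 0.0017). Without the 2 libraries farthest from the median r was 0.34. Oprm1 and Oprk1 had r = 0.44 (permutation p = 0.0012, adjusted 0.0023) and rho = 0.32 (0.022, adjusted 0.032), and r was 0.27 without the 2 farthest libraries.

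Oprm1 and Oprd1 had r = 0.65 (permutation p = 1e-05, the smallest these permutations can give, adjusted 6e-05) but rho = 0.19 (0.18, adjusted 0.22), and r was 0.34 without the 2 farthest libraries, so this r rests in part on those libraries. Oprm1 and Oprl1 had r = 0.31 (permutation p = 0.023, adjusted 0.034), rho = 0.38 (0.0047, adjusted 0.0095) and r = 0.36 without the 2 farthest libraries. Oprd1 and Oprl1 went opposite ways by rank, with rho = -0.43 (permutation p = 0.0013, adjusted 0.0038) but r = -0.13 (0.35, adjusted 0.42), and r = -0.30 without the 2 farthest libraries. Oprk1 and Oprl1 had r = -0.0474 (permutation p = 0.735, adjusted 0.735) and rho = -0.13 (0.36, adjusted 0.36), and r = -0.17 without the 2 farthest libraries. With group means removed in the 53, rho was 0.51 for Oprm1 and Oprd1, 0.52 for Oprm1 and Oprk1 and 0.46 for Oprd1 and Oprk1. It was 0.36 for Oprm1 and Oprl1 and 0.0036 for Oprk1 and Oprl1. For Oprd1 and Oprl1 it was -0.20 (permutation p = 0.15, adjusted 0.18), so their opposite ranks did not pass within groups. WT ZT19 saline, WT ZT19 cocaine and iMSN-D2RKO ZT19 saline were left with 1 library each, which then carries no deviation. Deviations within a group are tied by its mean, so this permutation p is approximate. The permutations ran across groups, so p-values with group means kept also count differences between groups. In the 13 set-apart libraries no pair passed, the nearest being Oprd1 and Oprl1 (r = -0.67, permutation p = 0.013, adjusted 0.080; rho = -0.66, 0.016, adjusted 0.095; r = -0.46 without the 2 farthest). These libraries share tissue and scale, so the values describe how the receptors vary together over libraries.

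For each receptor the 3 genes most like it were taken as those with the highest Pearson r of log2(FPKM + 1) over all 66 libraries, among 12945 genes. These were Smcr8 (0.92), Klf12 (0.92) and Cntnap5a (0.91) for Oprm1, and Lmtk2 (0.94), Add2 (0.92) and Atxn1l (0.91) for Oprd1. For Oprk1 they included Alcam (0.88) and Neto1 (0.87), and for Oprl1 they were Wdr6 (0.91), B630019K06Rik (0.89) and Lhfpl5 (0.88). Within the 53 libraries the r of the pairs named was 0.89 to 0.90 for Oprm1, 0.93 to 0.96 for Oprd1, 0.78 to 0.80 for Oprk1 and 0.81 to 0.84 for Oprl1. No gene of 1 receptor's list was on that of another. These points share library scale and the set-apart state.

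For the genes beside the receptors on the chromosome, r was taken over the same 66 libraries. The genes above were picked for the highest r, so they are no measure for these neighbours. Rgs17, a regulator of inhibitory G protein signalling on the lower side of Oprm1, had 0.72 and Ipcef1, the antisense neighbour, 0.26. For the other receptors r with the neighbours ran from -0.17 (Myt1, beside Oprl1) to 0.46 (Tmem200b, beside Oprd1).

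The promoters were searched for letters bound by clock and cocaine-responsive factors, since Oprl1 was called by time of day. In RefSeq (GRCm38.p6) the 250 bases before the start site were listed for 3 receptors in 7 entries, and Oprk1 had no entry. Searched on both strands were the E-box CACGTG, held by 6.02% of 32851 promoters of that length, CACGTT (3.85%), the CRE TGACGTCA (1.55%), the D-box TTATGTAA (0.819%) and the AP-1 site TGACTCA (4.46%). Only the Oprd1 promoter held a match, an E-box that opens 86 bases before the start site. It is shown beside the first Oprl1 promoter, which held none, with the E-box in capitals, each 5′ to 3′ on the strand of the gene.
Oprd1, chr4:132144487-132144736, - strand: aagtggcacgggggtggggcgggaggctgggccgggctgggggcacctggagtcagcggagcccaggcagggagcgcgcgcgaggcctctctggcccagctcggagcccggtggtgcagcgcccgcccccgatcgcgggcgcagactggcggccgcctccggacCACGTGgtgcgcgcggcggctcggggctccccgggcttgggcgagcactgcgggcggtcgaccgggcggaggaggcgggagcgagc
Oprl1, chr2:181714766-181715015, + strand: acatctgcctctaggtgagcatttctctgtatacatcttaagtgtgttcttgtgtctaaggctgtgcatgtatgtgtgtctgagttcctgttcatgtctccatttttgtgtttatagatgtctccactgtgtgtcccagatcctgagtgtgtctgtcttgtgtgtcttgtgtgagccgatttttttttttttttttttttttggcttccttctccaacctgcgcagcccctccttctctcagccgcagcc
The promoters also differ in composition: 80% of the bases of the Oprd1 promoter and 44.4% of those of this Oprl1 promoter are G or C. A match is a description of the letters and not a site.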

How the data were processed

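The authors enriched poly(A) RNA, prepared stranded libraries, aligned reads to mm10 with TopHat and Bowtie2 and, with Cufflinks, Cuffquant and Cuffnorm, deposited FPKM for 24138 genes. The submitters' processing notes name CASAVA 1.8.2, Bowtie and Cuffnorm. Of 72 columns, 6 repeat ZT3 libraries with identical values and were used once. Of all symbols, 163 are listed more than once, none a receptor. Read depth is unknown. FPKM summed to 364078 to 690048 per library, with 12496 to 13028 genes at 1 FPKM or more, so precision was taken from the 3 replicates.

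Levels were compared on log2(FPKM + 1) with limma 3.58.1 (R 4.3.3; empirical Bayes with trend), with group and time point as factors, and Benjamini-Hochberg adjustment over all genes that reached 1 FPKM in any of the libraries fitted. Fold changes of low genes are understated on this scale. Comparisons of cocaine with saline left out ZT3. JTK_CYCLE, with at most 1 outlying replicate dropped per time point, and permutation tests (100000 resamples, two-sided) ran in Python 3.11.15 with NumPy 2.4.6, SciPy 1.17.1 and pandas 2.3.3. The limma and JTK_CYCLE code was tested on simulated data. Marker lists and pathway lists were written by hand, and named genes are the receptors, pathway genes that passed or whose role is described, the 3 genes most like each receptor, its neighbours and Drd2. Of the genes that this rule names 1 is not reported here. The members and lists were chosen with earlier results of these data known. Alternatives covered the pseudocount, filters, scaling, replicates, set-apart libraries and a library score as a covariate.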

Additional observations from a re-analysis of the deposited data

How the results depend on the processing

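Of 420 receptor values under an alternative, 374 kept direction and side of the threshold, 9 lost and 3 gained a call and 34 changed sign, all of them values of at most 0.26 on the log2 scale with all libraries. The number of receptor tests called moved as follows. Time of day called 1 receptor, and 0 to 2 when 1 replicate number was left out. Oprl1 lost its call without replicate 1 (adjusted p = 0.0999) or 3 (0.055), and Oprk1 gained one without replicate 2 (0.044). Dark against light called 2, but 0 with the library score as a covariate, 0 without the set-apart libraries, and 1 to 2 with a replicate number left out. Oprk1 lost its call without replicate 3 (0.20, adjusted p = 0.15). The genotype at single conditions called 0 of 44, but 2 with the library score, and 1 without the set-apart libraries. The 1 is Oprd1 at ZT19 after cocaine (1.55, adjusted p = 0.020, 20.4% of genes called), where WT is then the single library at 1.72 FPKM, assumed to vary like the other groups. JTK_CYCLE called 1, but 2 at a threshold of 0.05, 0 without the set-apart libraries and 0 to 1 with a replicate number left out. Without replicate 2 the 1 is Oprl1 in WT cocaine (exact p = 0.0080) and not in WT saline. Of 6 pairs of receptors 3 had an adjusted p under 0.05 by r with all libraries (2 by rho), 4 in the 53 other libraries (4 by rho, not the same pairs), and 0 in the set-apart libraries alone. The cause of these moves was not tested. Relations within the set-apart libraries, relations with group means removed without them, and fits without iMSN-D2RKO ZT7 saline replicate 1 were chosen after seeing the data.

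Changes of sign with all replicates kept: without the set-apart libraries, genotype in all libraries for Oprd1 (0.0502) and Oprl1 (-0.0122), in saline for Oprk1 (-0.0045) and Oprl1 (-0.0226), after cocaine for Oprm1 (0.0847), and dark against light for Oprm1 (-0.16). With the library score, dark against light for Oprm1 (-0.25) and Oprd1 (0.0072). With FPKM scaled to the same sum, genotype for Oprl1 (-0.0061), in saline for Oprk1 (-0.0209) and Oprl1 (-0.0584), and cocaine in iMSN-D2RKO mice for Oprl1 (0.0509). With the median ratio, genotype in saline for Oprl1 (-0.0101). That sum scaling moved the median of all genes at ZT7 to -0.20 between the genotypes in saline and to 0.21 for cocaine in iMSN-D2RKO mice.

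With a replicate number or iMSN-D2RKO ZT7 saline replicate 1 left out, signs changed in these ranges. The genotype difference ran from -0.0730 to 0.0478 for Oprd1. In saline it ran from -0.0978 to 0.029 for Oprd1, -0.118 to 0.150 for Oprk1 and -0.0256 to 0.0440 for Oprl1, and after cocaine from -0.369 to 0.199 for Oprm1, -0.0723 to 0.221 for Oprd1 and -0.0292 to 0.0939 for Oprl1. Cocaine minus saline in WT ran from -0.377 to 0.198 for Oprm1, -0.106 to 0.209 for Oprd1, -0.190 to 0.0472 for Oprk1 and -0.174 to 0.0724 for Oprl1, and in iMSN-D2RKO mice from -0.0396 to 0.212 for Oprk1 and -0.0822 to 0.0137 for Oprl1. The interaction ran from -0.128 to 0.766 for Oprm1, -0.0187 to 0.345 for Oprd1, -0.0868 to 0.402 for Oprk1 and -0.0587 to 0.113 for Oprl1, and dark minus light from -0.0833 to 0.0486 for Oprd1.

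Same-numbered replicates were not treated as paired, and the labels do not say whether they were. Of 63 same-number pairs of deviations from the group means, 21 had r over 0.1 (-0.771 to 0.651, median -0.0339). All 3 were over 0.1 in 3 of 21 group pairs. These counts cannot exclude a pairing. A fit with the replicate number as a block called 2 receptors between dark and light, 1 by time of day and 0 in the other comparisons, and changed no call of a receptor. Read depth is unknown, so it cannot be said which low values, such as those of Oprm1, are limited by counting.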
